A study of Mus musculus with 16 samples.

Results

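The genes Arg1, Mrc1, Retnla, Chil3, Clec10a, Mgl2, Il10, Ccl17 and Il4ra, commonly read as marks of alternative macrophage activation, were followed across the tumors. They were taken as a given list, matched by symbol to Ensembl mouse identifiers, and are 9 of the 22298 genes in the deposited count tables. All 9 had at least 10 counts over the 16 tumors and were tested. The tumors grew in 6-week-old 615-line mice (samples labelled WT) after MFC cells, a mouse gastric (forestomach) carcinoma line, had been put into the abdominal cavity. The vehicle group (control, 8 tumors) was given PBS and the IL-33 treatment group (8 tumors) recombinant IL-33 at 20 µg/kg every other day, both intraperitoneally. The methods state that female or male mice matched for sex were used, the labels do not give the sex of each animal, and the labels name no sorting of cells, so tumor cells, stroma and leukocytes are read together.

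In alternative activation, IL-4 or IL-13 binds a receptor that contains the Il4ra chain, Janus kinases phosphorylate the transcription factor STAT6, and STAT6 switches on genes for enzymes, secreted proteins and surface lectins. IL-33, a cytokine of the IL-1 family, is known to promote this state indirectly, through IL-13 and IL-4 from mast cells, eosinophils and innate lymphoid cells. The study also reports a direct route, in which IL-33 added to cultured macrophages raised CD163. It ascribes that route to p38 and GATA3 signalling. None of the genes is exclusive to these macrophages: Arg1 and Chil3 are also made by neutrophils and immature myeloid cells, Mrc1 by lymphatic and sinusoidal endothelium, Clec10a and Mgl2 by dendritic cells, Il10 by T and B cells, Retnla by fat and epithelium, and Il4ra by nearly every cell, tumor cells included. In whole tumors, fewer cells of a type and less RNA per cell cannot be told apart.

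RefSeq promoter windows (GRCm38.p6, 250 bases before the RefSeq start) were found for 6 of the 9 genes, Mrc1, Retnla, Chil3, Mgl2, Ccl17 and Il4ra. The letters TTC and GAA with 4 bases between them, the kind of site that STAT6 binds and the same on both strands, were in 2 of these 6 windows, Retnla and Ccl17, and in 5.85% of all 32851 windows. GAGGAAG or its complement CTTCCTC, a core of the kind bound by PU.1, the factor that sets up the macrophage lineage, was in 2 of the 6, Mrc1 and Retnla, and in 10.6% of all windows. The 3 windows with a match are printed up to the first annotated exon base, with the matches in capitals, and are shown because STAT6 is the factor downstream of Il4ra and PU.1 a factor of the macrophage lineage. They are, on the plus strand, Retnla at chr16:48842359-48842550, Ccl17 at chr8:94810203-94810452 and Mrc1 at chr2:14229164-14229391.
Retnla: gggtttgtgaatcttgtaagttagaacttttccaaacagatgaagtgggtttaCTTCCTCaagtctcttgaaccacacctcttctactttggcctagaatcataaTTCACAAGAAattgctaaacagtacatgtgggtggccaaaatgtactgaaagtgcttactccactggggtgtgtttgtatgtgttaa
Ccl17: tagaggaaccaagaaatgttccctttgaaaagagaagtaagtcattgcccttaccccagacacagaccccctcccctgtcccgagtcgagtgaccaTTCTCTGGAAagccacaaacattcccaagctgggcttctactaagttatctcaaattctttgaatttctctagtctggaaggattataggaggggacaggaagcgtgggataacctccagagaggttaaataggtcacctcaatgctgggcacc
Mrc1: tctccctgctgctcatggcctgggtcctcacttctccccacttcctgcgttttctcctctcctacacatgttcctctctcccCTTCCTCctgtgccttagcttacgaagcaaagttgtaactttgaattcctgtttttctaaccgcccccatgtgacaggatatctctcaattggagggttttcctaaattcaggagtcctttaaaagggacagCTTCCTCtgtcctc
In Retnla the STAT6-type match is at bases -145 to -136 from the RefSeq start and the CTTCCTC match at -197 to -191. In Ccl17 the STAT6-type match is at -154 to -145, and Mrc1 has CTTCCTC at both -168 to -162 and -36 to -30. These matches describe the letters only, and no binding was measured.

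No difference between the groups passed the test in any of the 9 genes. In edgeR's quasi-likelihood test over 16817 genes, 0 of the 9 had an adjusted *P* under 0.05, against 0% of all genes (0 of 16817), and at an unadjusted *P* under 0.05 the count was again 0 of 9, against 11.2% of all genes (1876). Without IL-33 replicate 7, the tumor that stood apart, the unadjusted count was also 0 of 9, against 4.12% of 15803 genes. In DESeq2 it was also 0 of 9, against 4.11%. The groups overlapped in 9 of the 9 genes, and the share of all genes with overlapping groups was not counted. The median log2 fold change (IL-33 over control) of the 9 was -0.09, with 4 above 0 and 5 below, beside a median of 0.06 over all genes tested, and it was -0.19 without IL-33 replicate 7, beside -0.01. The spread between tumors of one group was large, and the 95% intervals therefore leave room for more than a doubling either way in the lectins Clec10a and Mgl2 and in Retnla, while for Il4ra they are narrow.

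Depth was 14139268 to 24290794 assigned reads per tumor, and 14701 to 17425 genes were detected. IL-33 replicate 7 held fat genes (6 genes, 3545 summed CPM, which are counts per 1000000 assigned reads, against at most 406 in every other tumor), genes of the female reproductive tract (12 genes, 1761 against at most 41.8) and genes of lymphatic and liver sinusoidal endothelium (7 genes, 110 against at most 23.0), and control replicate 4 held red blood cell genes (5 genes, 12804 against at most 2844) and the lowest TMM factor (0.640, against 0.895 to 1.24 elsewhere).

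**Figure D1:**
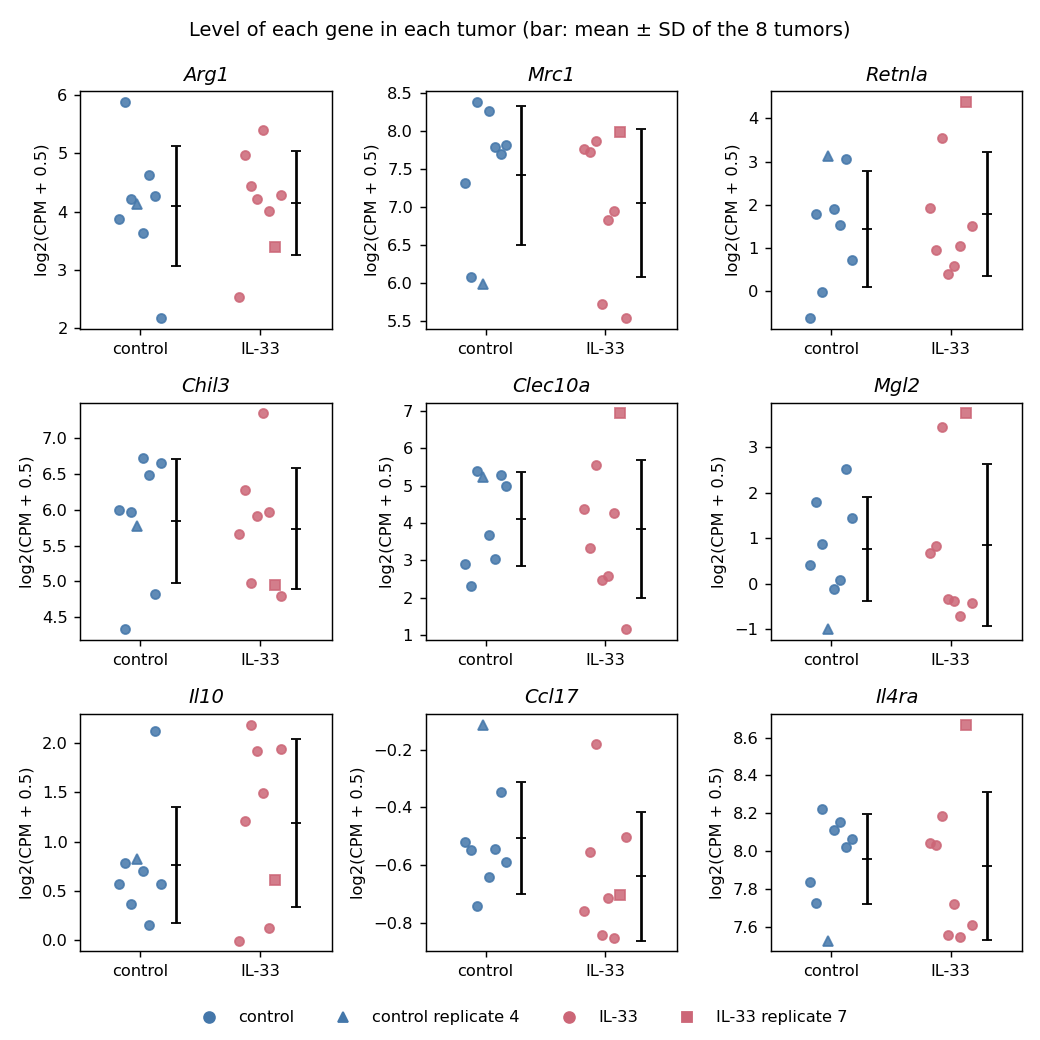
Level of the 9 genes as log2(CPM + 0.5) on the vertical axis in each of the 8 control (blue) and 8 IL-33 (red) tumors, with the mean and SD of each group in black. The red square, IL-33 replicate 7, is the highest tumor for Retnla, Clec10a, Mgl2 and Il4ra, and the groups overlap in every panel.

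Of the enzyme and the secreted proteins, Arg1 codes for arginase, which turns arginine into ornithine and so competes with nitric oxide synthesis. In the vehicle group it ran from 3.99 CPM (replicate 8) through a median of 17.5 to 58.3 CPM (replicate 2), and in the IL-33 group from 5.27 (replicate 1) through 18.5 to 42.0 CPM (replicate 5). Control replicate 2 stood above all other tumors and the 2 groups lay over each other. The means were 20.8 ± 16.3 CPM in control and 20.2 ± 11.6 CPM in IL-33 (SD, n = 8 each), a log2 fold change of -0.09 (SE 0.45, 95% interval -1.05 to 0.87, adjusted *P* = 0.971, edgeR). The sign turned in 3 of the 16 fits that left out 1 tumor, with fold changes of 0.28 once control replicate 2 was left out, and 0.053 and 0.023 once replicates 1 and 7 of the IL-33 group were.

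Chil3 codes for Ym1, a chitinase-like lectin that is secreted and can crystallise. Control tumors ran from 19.6 (replicate 2) through 62.8 to 105 CPM (replicate 5), and IL-33 tumors from 27.3 (replicate 8) through 54.8 to 162 CPM (replicate 5). IL-33 replicate 5 was far above the next tumor of its group, and the other 7 lay within the range of the controls. The log2 fold change was -0.13 (SE 0.42, interval -1.005 to 0.75, adjusted *P* = 0.955, edgeR), and -0.52 without IL-33 replicate 5. The near copy Chil4, which shares 18.5% of the 50-base windows of the longest Chil3 transcript, had 1 read in all tumors together, and whether reads that match both were dropped is not known.

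Retnla codes for RELMα (FIZZ1), a small secreted protein of the resistin family. Levels were low and uneven, from 0.148 CPM (control replicate 1, 3 reads) through 2.67 to 8.20 CPM (control replicate 4) in the vehicle group and from 0.818 (replicate 4) through 1.96 to 20.2 CPM (replicate 7) in the IL-33 group. IL-33 replicate 7 alone held 45.9% of the group's Retnla reads, and IL-33 replicate 3 came next at 11.1 CPM. The fold change was 0.31 (SE 0.80, interval -1.36 to 1.99, adjusted *P* = 0.938, edgeR) and turned to -0.30 (SE 0.76) without IL-33 replicate 7. Control replicate 4, the tumor with the most red blood cell RNA, was the highest control.

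Of the lectin receptors, Mrc1 (CD206, the mannose receptor) takes up glycoproteins with exposed mannose and is the surface marker most used for these cells. Control tumors held 62.7 (replicate 4), 213 (median) and 332 CPM (replicate 3), and IL-33 tumors 45.7 (replicate 8), 167 (median) and 253 CPM (replicate 7). In each group most tumors lay above 100 CPM and 2 lay below 70, control replicates 2 and 4 and IL-33 replicates 4 and 8. The means were 197 ± 98.5 and 156 ± 82.8 CPM (SD, n = 8 each), with a log2 fold change of -0.40 (SE 0.38, interval -1.20 to 0.41, adjusted *P* = 0.762, edgeR). It was below 0 in all 16 fits that left out 1 tumor, from -0.53 to -0.25, and no fit reached an unadjusted *P* under 0.05. The change was -0.80 (SE 0.40, adjusted *P* = 0.874) in limma voom with quality weights.

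Clec10a (MGL1) and Mgl2 are neighbouring genes on chromosome 11 (GRCm38, Clec10a at 70156197-70170834 and Mgl2 at 70130329-70137550, both on the plus strand) that code for lectins for galactose and N-acetylgalactosamine. Of the 50-base windows of the longest Mgl2 transcript, 15.3% also occur in Clec10a, with a longest shared run of 183 bases, so some reads of one could have been dropped or given to the other. Clec10a ran from 4.48 (replicate 2) through 21.9 to 41.2 CPM (replicate 3) in control and from 1.73 (replicate 8) through 14.2 to 122 CPM (replicate 7) in IL-33. IL-33 replicate 7 held 51.3% of the group's reads, and the next tumor of the group, replicate 3, was at 46.2 CPM.

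The log2 fold change of Clec10a was 0.07 (SE 0.72, interval -1.45 to 1.58, adjusted *P* = 0.988, edgeR), and -0.67 (SE 0.66, interval -2.06 to 0.72) without IL-33 replicate 7. The mean of log2(CPM + 0.5), on which single tumors weigh less, was already lower in IL-33 with all 16 tumors, by -0.27 (exact permutation *P* = 0.735). Mgl2 was lower still, from 0 reads (control replicate 4) through 1.09 to 5.26 CPM (replicate 7) in control and from 0.108 (replicate 6) through 0.691 to 12.8 CPM (replicate 7) in IL-33. IL-33 replicates 7 and 3, at 12.8 and 10.3 CPM, were above every control, and the other 6 tumors of that group did not pass 1.27 CPM. Its fold change of 0.85 (SE 0.97, interval -1.21 to 2.90, adjusted *P* = 0.813, edgeR) was the furthest from 0 of the 9, fell to 0.21 without IL-33 replicate 7, and was -0.75 with limma voom quality weights.

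The last 3 genes are a cytokine, a chemokine and a receptor chain. Il10 codes for interleukin-10, which restrains macrophages and T cells. Control tumors held from 0.617 (replicate 6) through 1.06 to 3.83 CPM (replicate 7) and IL-33 tumors from 0.4998 (replicate 1) through 2.06 to 4.04 CPM (replicate 3). In the vehicle group 7 of 8 tumors lay close together and replicate 7 far above them, while the IL-33 tumors were spread over the whole range, with 5 of 8 above the mean of the controls on the log scale. The log2 fold change was 0.53 (SE 0.49, interval -0.51 to 1.58, adjusted *P* = 0.752, edgeR), and in the 16 fits that left out 1 tumor it ran from 0.33 (without IL-33 replicate 3) to 0.91 (without control replicate 7).

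Ccl17 codes for TARC, a chemokine that draws CCR4-bearing T cells. Only 1 to 7 reads per tumor were counted for it, and 10 of 16 tumors had no more than 3 reads. Summed over each group there were 29 reads in control and 23 in IL-33. Its log2 fold change of -0.65 (SE 0.56, interval -1.83 to 0.54, adjusted *P* = 0.727, edgeR) was not detectable as a difference at this depth. Single tumors moved it in both directions: it was -0.26 without control replicate 4, the control tumor with the highest CPM, and -0.996 without IL-33 replicate 3, the tumor with 7 reads. In the exact permutation test on log2(CPM + 0.5) *P* was 0.227 over all 16 tumors, 0.440 without control replicate 4 and 0.035 without IL-33 replicate 3.

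Il4ra was the most even gene. Control tumors lay between 184 (replicate 4) and 298 CPM (replicate 3), with a median of 263, and IL-33 tumors between 186 (replicate 6) and 407 CPM (replicate 7), with a median of 236. Apart from IL-33 replicate 7, which was above every other tumor, the groups covered the same range. The means were 251 ± 39.6 and 250 ± 74.7 CPM (SD, n = 8 each), and the log2 fold change was -0.11 (SE 0.14, interval -0.42 to 0.19, adjusted *P* = 0.841, edgeR). Without IL-33 replicate 7 it was -0.19 (SE 0.13, interval -0.46 to 0.09).

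**Figure D2:**
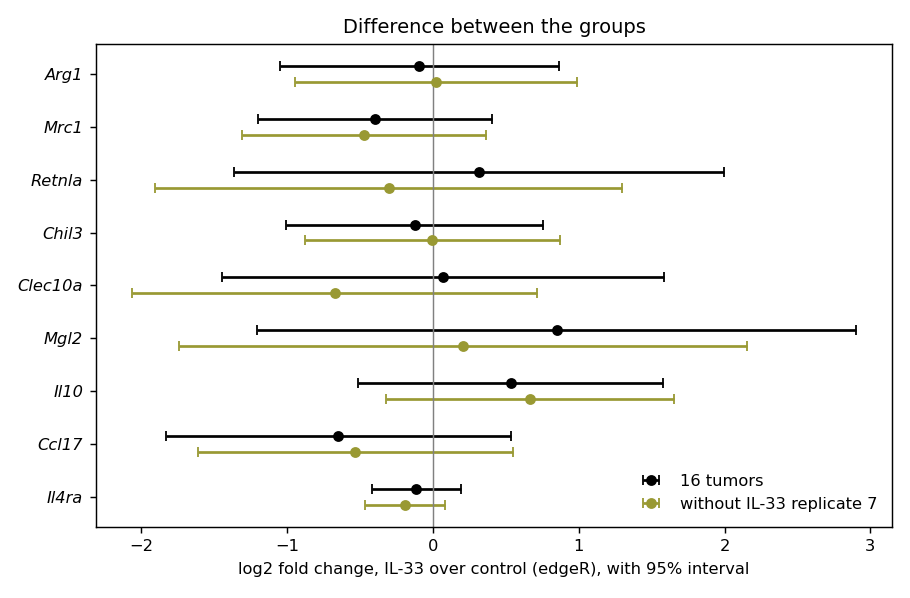
Log2 fold change of each gene, IL-33 over control, from edgeR with its 95% interval on the horizontal axis, over all 16 tumors (black) and without IL-33 replicate 7 (olive). Every interval crosses 0, the narrowest is that of Il4ra, and the points of Retnla, Clec10a and Mgl2 move to the left when IL-33 replicate 7 is left out.

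The exact permutation test over all 12870 splits of the 16 tumors, two-sided on log2(CPM + 0.5), was run as well, with *P* from 0.227 (Ccl17) to 0.908 (Arg1) and 0 of 9 under 0.05, where 2.71% of all genes tested were. Setting each gene against the mean of 12 macrophage genes in the same tumor asks whether it changed relative to those genes. This measures change per amount of macrophage RNA only where the RNA of a gene comes from macrophages, which was not tested. Among those 12 genes themselves the median log2 fold change was 0.04, with 0 of 12 at an unadjusted *P* under 0.05. Csf1r, the receptor for the macrophage growth factor, had 0.22 (SE 0.24, adjusted *P* = 0.807), Adgre1 (F4/80) 0.19 (SE 0.37, adjusted *P* = 0.908) and C1qa, a complement chain, -0.02 (SE 0.32, adjusted *P* = 0.993) in edgeR. Relative to them, 0 of the 9 genes had an exact permutation *P* under 0.05, where 1.08% of all genes did. Il10 relative to macrophage genes differed by 0.27 on the log2 scale (exact permutation *P* = 0.275) and by 0.41 without IL-33 replicate 7 (exact permutation *P* = 0.081), Mrc1 by -0.52 (exact permutation *P* = 0.353), and Clec10a by -0.42 (exact permutation *P* = 0.604).

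Per kilobase of merged exon, the mean level over the 16 tumors was 41.7 ± 9.62 CPM per kb for Il4ra, 39.1 ± 22.7 for Chil3, 27.7 ± 14.2 for Mrc1, 9.20 ± 6.12 for Arg1, 8.83 ± 10.3 for Clec10a, 7.11 ± 8.82 for Retnla, 1.32 ± 0.933 for Il10, 1.19 ± 1.82 for Mgl2 and 0.350 ± 0.207 for Ccl17 (SD, n = 16). By these means the genes fell into a high, a middle and a low set of 3. With the longest transcript as the length, 7 of the 9 genes kept their rank, and Mgl2 came above Il10. Within a set, neighbours were not separated beyond their spread. Il4ra was above Chil3 in 7 of 16 tumors, Chil3 above Mrc1 in 11, Arg1 above Clec10a in 9 and Il10 above Mgl2 in 10, while Mrc1 was above Arg1 and Retnla above Il10 in 13 each.

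The genes did not rise and fall as a block from tumor to tumor. Over the 16 tumors, 19 of the 36 pairs had a Pearson's r of log2(CPM + 0.5) above 0 and 17 below, with a median of 0.137 and a range of -0.532 to 0.828. After Benjamini-Hochberg adjustment over the 36 pairs, 2 pairs passed, against 1 without IL-33 replicate 7 and 6 without control replicate 4 (Clec10a with Mrc1, Mgl2 and Il4ra, Mgl2 with Retnla and Il4ra, and Mrc1 with Il4ra). The share of passing pairs among other genes was not counted, so 2 of 36 cannot be called few or many. The clearest was Mrc1 with Il4ra (r = 0.828, permutation *P* = 7e-05, adjusted *P* = 0.0025, and Spearman's rho = 0.921, permutation *P* = 1e-05, the smallest that 100000 resamples can give, adjusted *P* = 0.00036). Without the 2 tumors farthest from the median of Mrc1, r was 0.802, and without IL-33 replicate 7 it was 0.906 (adjusted *P* = 0.0011, permutation). Within the 8 control tumors alone r was 0.949 (exact permutation *P* = 0.0004), and within the 8 IL-33 tumors 0.795 (exact permutation *P* = 0.014). The 4 tumors with Mrc1 below 70 CPM were also among the 6 with the least Il4ra. All CPM of a tumor share its total, and with TMM scaling r was 0.821.

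The other pair was Mgl2 with Il4ra (r = 0.732, permutation *P* = 0.0011, adjusted *P* = 0.019, rho = 0.729, permutation *P* = 0.0019, adjusted *P* = 0.035). It was weaker without the 2 tumors farthest from the median of Mgl2 (r = 0.542) and without IL-33 replicate 7 (r = 0.600, adjusted *P* = 0.194, permutation), and it was 0.435 with TMM scaling. Within the IL-33 group r was 0.924 (exact permutation *P* = 0.000347, adjusted *P* = 0.0125) and within the vehicle group 0.263 (exact permutation *P* = 0.525). The paralogs Clec10a and Mgl2 had r = 0.590 (permutation *P* = 0.017, adjusted *P* = 0.120), with 0.835 in the IL-33 tumors (exact permutation *P* = 0.0072, adjusted *P* = 0.051) and 0.054 in the control tumors (exact permutation *P* = 0.895). For neither pair was the difference between the groups tested.

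The most negative pairs held Chil3 or Arg1. Chil3 had r = -0.532 with Mgl2 (permutation *P* = 0.034, adjusted *P* = 0.140) and -0.531 with Retnla (permutation *P* = 0.035, adjusted *P* = 0.140). Arg1 had -0.464 with Clec10a and -0.378 with Mrc1 (permutation adjusted *P* = 0.212 and 0.359), and its highest r with any of the other 8 was 0.364, with Il10. No negative pair passed the adjustment with all 16 tumors.

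**Figure D3:**
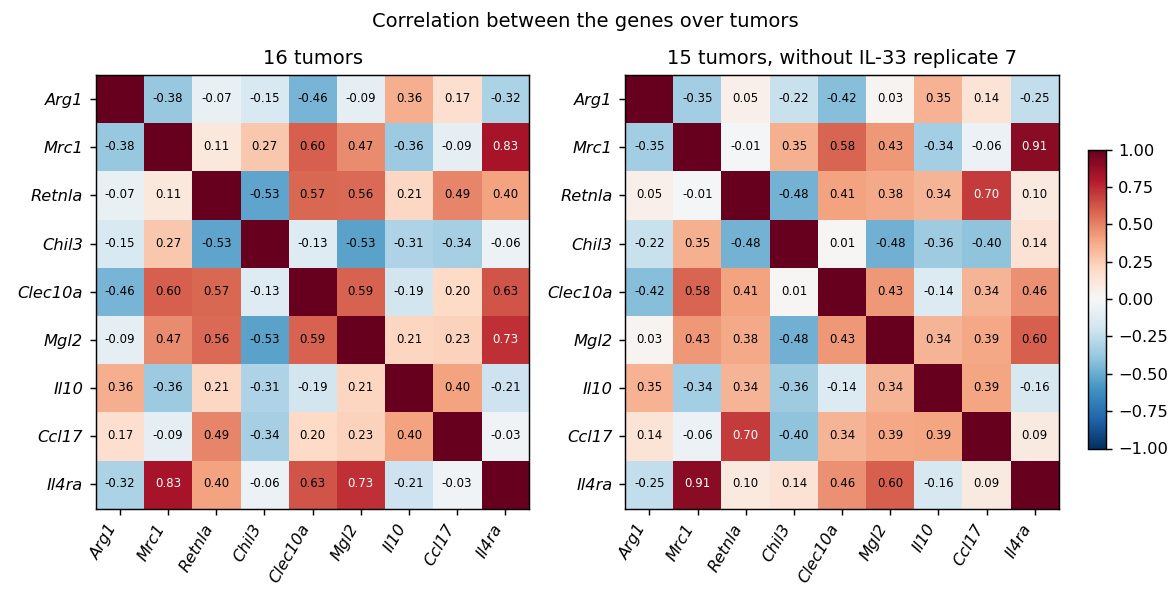
Pearson's r of log2(CPM + 0.5) for each pair of the 9 genes over 16 tumors (left) and 15 tumors without IL-33 replicate 7 (right), from -1 (blue) to 1 (red). The square of Mrc1 with Il4ra stays dark red on both sides (0.83 and 0.91), while those of Clec10a and Mgl2 with Il4ra are paler on the right.

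Setting the 9 genes beside 13 lists of cell type genes gave 117 relations, adjusted together, of which 9 passed with Pearson's r, 4 of them of Il10, and 0 with Spearman's rho. How often other genes would pass with these lists was not counted. Il10 followed the regulatory and CD4 T cell list (8 genes, r = 0.818, permutation *P* = 0.00019, adjusted *P* = 0.0056), the classical activation list (15 genes, r = 0.784, adjusted *P* = 0.0079, permutation), the macrophage list (r = 0.753, adjusted *P* = 0.0079, permutation) and the dendritic cell list (12 genes, r = 0.753, adjusted *P* = 0.014, permutation). Spearman's rho was 0.688, 0.682, 0.641 and 0.679, with adjusted permutation *P* of 0.0792, 0.0792, 0.101 and 0.0792, so the rank relations did not pass. Without IL-33 replicate 7 the 4 values of r were 0.835, 0.789, 0.810 and 0.793, and each passed. Which cells held the Il10 RNA was not tested.

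Mrc1 had r = -0.629 with the B cell list (permutation *P* = 0.0088, adjusted *P* = 0.079), which passed without IL-33 replicate 7 (r = -0.743, adjusted *P* = 0.045, permutation) but not by rank (rho = -0.479, adjusted *P* = 0.352, permutation). With the macrophage list Mrc1 had r = -0.035 (permutation *P* = 0.897), Arg1 -0.0082, Clec10a 0.143 and Chil3 -0.536 (permutation *P* = 0.032, adjusted *P* = 0.168). Mgl2 had 0.640 with it (adjusted *P* = 0.071, permutation) and 0.657 with 8 genes of resident peritoneal macrophages (adjusted *P* = 0.058, permutation), and both r values were above 0 where those of Chil3 were below. Without IL-33 replicate 7, the tumor richest in the resident list (284 summed CPM), they were 0.634 and 0.440 for Mgl2 (adjusted *P* = 0.104 and 0.339, permutation). Clec10a and Il4ra followed the lymphatic and sinusoidal endothelium list (r = 0.681 and 0.749, adjusted *P* = 0.0060 and 0.0058, permutation, rho = 0.603 and 0.588, adjusted *P* = 0.144 and 0.168), with 0.569 and 0.549 once IL-33 replicate 7, the tumor richest in that list, was left out (adjusted *P* = 0.121 each, permutation). Mgl2 and Mrc1 did not pass with that list but had rho of like size (r = 0.629 and 0.447, adjusted *P* = 0.085 and 0.248, permutation, rho = 0.674 and 0.612, adjusted *P* = 0.081 and 0.140). Without IL-33 replicate 7 their r was 0.379 and 0.570 (adjusted *P* = 0.444 and 0.121, permutation). Clec10a, Mgl2 and Il4ra also followed the female reproductive tract list (r = 0.583, 0.618 and 0.684, adjusted *P* = 0.0039 each, permutation, rho adjusted *P* = 0.0792 each). Without IL-33 replicate 7, where the summed level of that list did not pass 41.8 CPM, r was still 0.665, 0.748 and 0.693 (adjusted *P* = 0.065, 0.038 and 0.057, permutation). The r with the fat list was 0.627 for Retnla and 0.572 for Clec10a, and 0.41 and 0.342 without IL-33 replicate 7. The part of those tissues in the RNA of these genes was not tested.

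**Figure D4:**
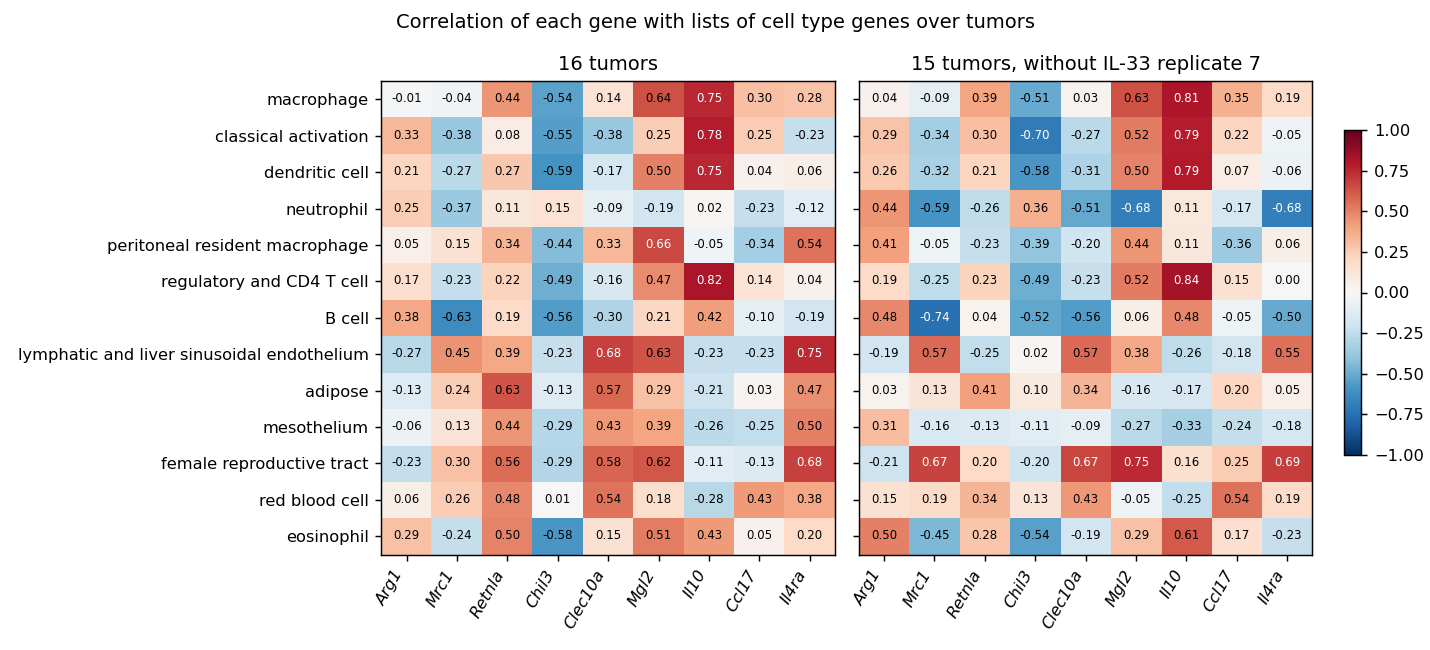
Pearson's r of log2(CPM + 0.5) of each gene with the mean log2(CPM + 0.5) of each of 13 cell type lists, over 16 tumors (left) and without IL-33 replicate 7 (right). The Il10 column is red for the macrophage, classical activation, dendritic cell and T cell lists on both sides, and the red of the fat row for Retnla and Clec10a fades on the right.

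The genes whose pattern was most like each of the 9 were sought among 13109 genes with a mean of at least 1 CPM, by the lower of r over 16 and r over 15 tumors. For Mrc1 they were F13a1, a coagulation factor chain made by macrophages (likeness 0.951), Hmgcs1, an enzyme of sterol synthesis (0.910), and Lyve1, a hyaluronan receptor of lymphatic endothelium and of some tissue macrophages (0.888). For Il4ra they were Idh1 (0.914), Reps2 (0.891) and Acss2 (0.877), of which Idh1 and Acss2 code for enzymes that supply NADPH and acetyl-CoA. For Clec10a they were Fcgrt, the neonatal Fc receptor (0.901), Ang (0.894) and Gpx3 (0.874), and for Mgl2 Itm2a (0.866), Sfrp4 (0.861) and Lum (0.860), the last of them a matrix proteoglycan of fibroblasts. Il10 was most like Cd6, a T cell surface protein (0.889), Slfn2 (0.877) and Hcls1 (0.876), the last a gene of blood cells.

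Arg1 was most like F10 (0.796), Apln (0.770) and Ppp1r3b (0.756), Chil3 like Pcbp3 (0.899), Hhipl1 (0.804) and Chrna1 (0.790), Retnla like Pigx (0.859), Churc1 (0.857) and Sirt7 (0.843), and Ccl17 like Mrpl53 (0.876), Atp6v0b (0.864) and Ndufb1-ps (0.861). None of the 27 places went to another of the 9 genes. Among 13109 genes such a place would be rare by chance alone, so this says little about the likeness of the 9. Ccl17, at a mean of 0.180 CPM, was below the level for the search and could not take a place. With 1 to 7 reads of Ccl17 per tumor, its values take few steps. The likeness values are a description, with no test.

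**Figure D5:**
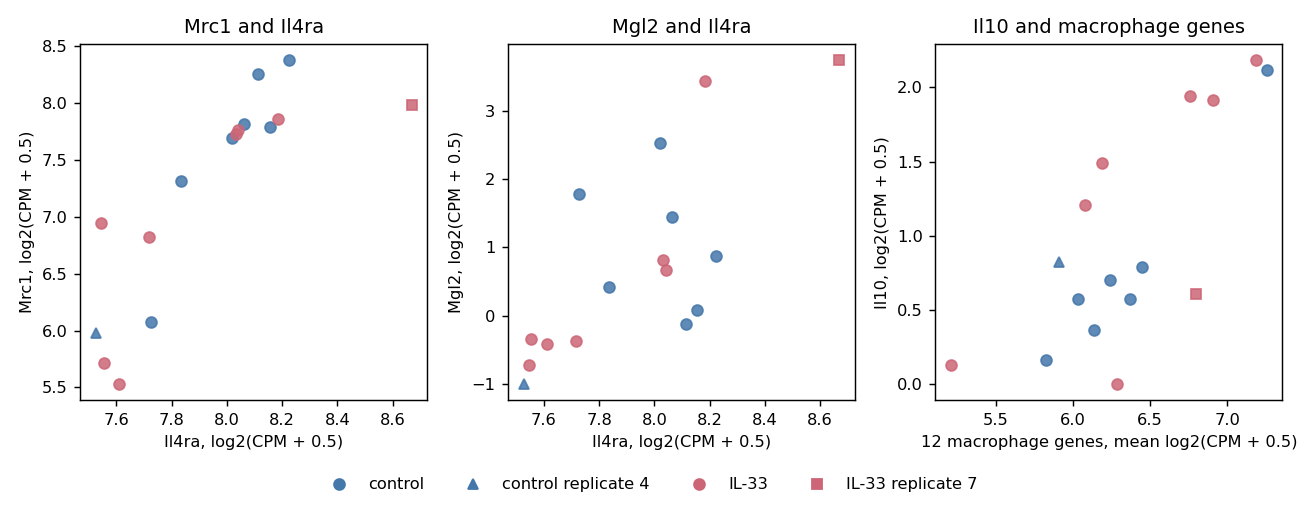
Mrc1 and Mgl2 against Il4ra, and Il10 against the mean of 12 macrophage genes, all as log2(CPM + 0.5), one point per tumor. Mrc1 and Il4ra rise together in both groups, the relation of Mgl2 with Il4ra leans on the tumors at the top right, and 1 control tumor (replicate 7) lies among the IL-33 tumors with the most Il10 and the most macrophage RNA.

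The upstream pathway was measured as well. The ligands were at or near the limit of detection: Il4 had 7 reads and Il13 2 reads in all tumors together, and 10 and 15 of 16 tumors had none. Of the 20 genes listed for the IL-4 and IL-13 pathway 18 were tested, with a median log2 fold change of 0.17, and 0 passed the adjusted test. At an unadjusted *P* under 0.05, 3 were higher and 0 lower, where 9.99% of all genes were higher. Stat6 itself did not pass, with 0.03 (SE 0.23, adjusted *P* = 0.983, edgeR), and neither did Gata3, with 0.10 (SE 0.25, adjusted *P* = 0.938).

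The 3 were Irf4, Pparg and Cish. Irf4, a transcription factor needed for alternative activation and also used by plasma cells, T cells and dendritic cells, ran from 0.354 through 1.10 to 4.72 CPM in control and from 0.757 through 4.57 to 17.7 CPM in IL-33. The levels of 4 of 8 IL-33 tumors were above the highest control, and those of the other 4 lay among the controls. Its log2 fold change was 1.75 (SE 0.61, unadjusted *P* = 0.011, adjusted *P* = 0.418, edgeR), and 1.80 without IL-33 replicate 7 (unadjusted *P* = 0.011). Pparg, a nuclear receptor of fat cells and macrophages, had 1.01 (SE 0.42, unadjusted *P* = 0.030, adjusted *P* = 0.418), with its highest value, 25.1 CPM, in IL-33 replicate 7, and 0.84 without that tumor (unadjusted *P* = 0.061). Cish, a feedback inhibitor of STAT signalling, had 0.83 (SE 0.37, unadjusted *P* = 0.037, adjusted *P* = 0.420) and 0.27 without it.

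Regulators of the pathway were also set beside the 9 genes, and how often they would pass with other genes was not counted. Of 36 relations of Stat6, Irf4, Pparg and Gata3 with the 9 genes, 2 passed with Pearson's r over 16 tumors, Stat6 with Retnla (r = -0.727, permutation *P* = 0.0012, adjusted *P* = 0.027) and Gata3 with Clec10a (r = -0.719, permutation *P* = 0.0015, adjusted *P* = 0.027). Both were negative, and 0 of the 36 passed by rank (for these, rho = -0.594 and -0.609, adjusted *P* = 0.159 each, permutation). Stat6 was lowest in control replicate 4, at 77.7 CPM, where Retnla was the highest of the controls. Without IL-33 replicate 7, 4 of the 36 passed, namely Stat6 with Retnla and with Ccl17 (r = -0.675 and -0.782, adjusted *P* = 0.030 and 0.011, permutation, with rho = -0.514 and -0.479, adjusted *P* = 0.294 each) and Irf4 and Pparg with Il10 (r = 0.695 and 0.847, adjusted *P* = 0.035 and 0.0043, permutation, with rho = 0.607 and 0.700, adjusted *P* = 0.294 and 0.174). None of the 4 passed by rank. Ccl17 had 1 to 7 reads per tumor and was highest in control replicate 4, the tumor lowest in Stat6.

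Of 20 further alternative activation genes 19 were tested, with a median log2 fold change of 0.01 and 0 past the adjusted test. At an unadjusted *P* under 0.05, 0 were higher and 1 was lower, where 1.17% of all genes were lower. That gene was Mmp12, macrophage elastase, with -1.59 (SE 0.62, unadjusted *P* = 0.020, adjusted *P* = 0.418, edgeR), and -1.76 without IL-33 replicate 7. Without that tumor Stab1, a scavenger receptor of macrophages and sinusoidal endothelium, was lower too, at -0.92 (unadjusted *P* = 0.019), where it had been -0.39 with all tumors and 424 CPM in IL-33 replicate 7 itself. Cd163, the haemoglobin scavenger receptor, had -0.20 (SE 0.51, adjusted *P* = 0.938), and -0.82 without that tumor (unadjusted *P* = 0.069). Ccl22, which shares its receptor with Ccl17, had 0.25 (SE 0.99, adjusted *P* = 0.964), at a median of 0.153 CPM in control and 0.390 in IL-33.

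Among 9 genes of the IL-10 pathway the median was 0.15, and 1 was higher at an unadjusted *P* under 0.05, where 9.99% of all genes were, namely Socs3, the feedback inhibitor of STAT3 signalling (0.29, SE 0.12, unadjusted *P* = 0.025, adjusted *P* = 0.418, edgeR, and 0.28 without IL-33 replicate 7). Of 15 classical activation genes 0 passed in either direction, with a median of 0.23. Nos2, the inducible nitric oxide synthase that competes with arginase for arginine, had 0.05 (SE 0.50, adjusted *P* = 0.987) and medians of 7.45 CPM in control and 9.50 in IL-33.

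The cells that could carry these genes were counted by the same rule, with 0 genes of any list past the adjusted test. At an unadjusted *P* under 0.05, 1 of 12 dendritic cell genes, 5 of 12 neutrophil genes, 1 of 5 eosinophil genes and 1 of 8 resident peritoneal macrophage genes were higher in the IL-33 group, and so were 0 of 8 T cell, 0 of 7 B cell and 0 of 6 lymphatic and sinusoidal genes, where 9.99% of all genes tested were higher and 1.17% lower. Without IL-33 replicate 7, where 1.83% of all genes tested were higher and 2.29% lower, 0 dendritic cell, 4 neutrophil, 1 eosinophil and 0 resident peritoneal macrophage genes were higher, and 2 of 6 lymphatic and sinusoidal genes were lower. Of the tissue lists, 1 of 6 fat, 2 of 6 mesothelium and 10 of 12 reproductive tract genes were higher, and 0 of each without IL-33 replicate 7, while 4 of 5 red blood cell genes were lower, and 5 of 5 without that tumor. The neutrophil genes that were higher were Ngp, Ltf, Camp, Mpo and Elane, which code for granule proteins, while over the list 8 of 12 fold changes were above 0 and 4 below. Chil3, which neutrophils can also make, had r = 0.147 with the neutrophil list (permutation *P* = 0.587), and 0.359 without IL-33 replicate 7 (permutation *P* = 0.188).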

How the data were processed

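RNA was sequenced from whole abdominal tumors of the vehicle and IL-33 treatment groups (8 each, grouped by the titles), which the study had chosen for adequate RNA quality. The authors deposited, for each tumor, the raw count of reads per Ensembl gene, made with HISAT2 and featureCounts on mm10 per the labels' processing notes. The versions, the annotation and the strand setting are not given in the sources used here, and reads of overlapping or antisense genes may therefore be mixed. Identifiers were matched to GENCODE M21, and 22255 of 22298 found a name.

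Genes with at least 10 counts in all were tested with edgeR 4.0.16 (TMM, glmQLFit, glmQLFTest, Benjamini-Hochberg over all genes, call at adjusted P under 0.05). CPM are counts per 1000000 assigned reads, used as log2(CPM + 0.5) for exact two-sided permutation tests and for correlations (100000 resamples, exact for 8 tumors). Spread between libraries exceeded counting noise for every pair within a group (chi-square per degree of freedom of at least 8.79). DESeq2 1.42.0, limma 3.58.1, other scalings, filters and left-out tumors were alternatives. edgeR was tested on simulated counts. The genes, lists and tests were chosen with earlier results of these data known. Besides the 9 genes, the text names genes of the pathway lists at unadjusted P under 0.05 with or without IL-33 replicate 7, 12 fixed ones, and the 3 most alike genes per gene. The labels do not say that each tumor came from a separate animal, and the study's methods give fewer mice per group for this model than the 8 tumors sequenced. Tumors may therefore share an animal, and P values, which measure the spread between these tumors, would then be too small.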

Additional observations from a re-analysis of the deposited data

Results flagged for a closer look

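Of the 18 sets of 8 tumors (9 genes in each of the groups), 6 held a tumor whose gap to the next one took a larger share of the whole range than Dixon's 95% critical value for 8 samples. If the values were independent and normally distributed, about 1 in 20 sets would by chance, 0.9 of 18. The values used were CPM without a logarithm, which are skewed, and the sets share tumors. The count of 6 therefore cannot be read as an excess over 0.9. In the IL-33 group the flagged tumors were replicate 7 for Clec10a (122 CPM) and Il4ra (407 CPM), replicate 5 for Chil3 (162 CPM) and replicate 3 for Ccl17 (0.383 CPM, 7 reads). In the vehicle group they were replicate 2 for Arg1 (58.3 CPM) and replicate 7 for Il10 (3.83 CPM). IL-33 replicate 7 is also the tumor with the most fat, reproductive tract and lymphatic RNA, and control replicate 7 the one with the highest summed macrophage genes (3082 CPM). Whether these account for the high values was not tested.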

How the results depend on the processing

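The count of the 9 genes with an adjusted or unadjusted P under 0.05 was 0 in all 23 other fits (DESeq2, upper-quartile scaling, filterByExpr, which left out Ccl17 and so tested 8 of them, no filter, limma voom, the replicate block, 16 left-out tumors, and DESeq2 without IL-33 replicate 7, the last chosen after the data were seen), with a smallest unadjusted P of 0.063 (Mrc1, limma voom) and a smallest adjusted P of 0.458. The count by exact permutation was 0 throughout, and 1 (Ccl17) without IL-33 replicate 3, so 0 to 1 over the left-out tumors, and relative to macrophage genes 0 under every alternative. The count of correlated pairs, 2 of 36, was 1 without IL-33 replicate 7, 6 without control replicate 4, 5 with the macrophage mean regressed out, and 1 in either group alone (8 tumors), and it was 2 with TMM scaling, log2(CPM + 0.1), Spearman's rho and group means removed.

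Fold changes turned sign for 4 genes. With limma voom they were 0.20 for Arg1, -0.79 for Clec10a and -0.75 for Mgl2, and with DESeq2 without IL-33 replicate 7 they were 0.014 for Arg1, -0.35 for Retnla and -0.70 for Clec10a. Over the left-out tumors Arg1 ran from -0.36 to 0.28, Retnla from -0.30 to 0.88 and Clec10a from -0.67 to 0.35. The causes were not tested beyond the tumor left out.

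The labels do not say that equal replicate numbers pair the tumors. Deviations of same-numbered tumors correlated from -0.331 to 0.374, and 2 of 8 numbers matched best with themselves. These values were not tested and do not settle whether equal numbers mark a pairing. With the replicate block the count of genes stayed at 0, and Clec10a was at -0.14 and Mgl2 at -0.045.

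Ccl17, with at most 7 reads per tumor, and Il4 and Il13 are limited by depth. At these spreads, changes of any size within the 95% intervals remain compatible with the data.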
